A study of Mus musculus with 48 samples.

Results

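Peak lists of histone H3 acetylated at lysine 27 (H3K27ac) were compared between the heart and the liver of mice at 4 stages around birth: E14.5 and E17.5, in days of embryonic development, and P0 and P7, in days after birth. Each tissue had 1 list at each stage, so the comparison rests on 8 of the 24 H3K27ac libraries of a series of 48 libraries. Peaks of the 8 lists that overlapped by 1 bp or more were merged into 59217 regions, called elements here, against 86181 when the 24 lists were merged. A list marks an element where at least 1 of its peaks lies there. Elements marked in all 4 heart lists and in no liver list were called heart-only and numbered 4021, or 6.79% of the 59217. The reverse pattern, called liver-only, was found at 844 elements (1.43%). Elements marked in all 8 lists were called shared and numbered 7634 (12.9%). These 3 numbers describe the rule that chose the elements and carry no test.

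All animals were of the outbred CD-1 strain, with no other genotype or treatment stated, and each library at these 4 stages held tissue pooled from several embryos or mice. The series also holds lists from forebrain, and heart and liver lists from E11.5, P21 and P56, where the P56 libraries were not pooled. These 16 lists took no part in choosing the elements and are called the unused lists. The P0 and P21 libraries carry p1 and p20 in their own file headers, and are called P0 and P21 here, as their samples are labelled. The design asks how the regions carrying the mark differ between organs and over development.

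H3K27ac sits on nucleosomes next to active promoters and enhancers. Enhancer marking differs more between tissues than promoter marking does, since most promoters of genes needed by every cell are active everywhere while each cell type uses its own enhancers. Heart tissue consists of contracting muscle cells together with endothelial cells and fibroblasts, whereas the liver changes its makeup during this period: the fetal liver is a main site of blood formation, and hepatocytes take over as blood formation moves to the bone marrow around birth. No gene annotation of build mm9 was used here, so elements are given by mm9 position, counted from 1, without gene names, and the labelled tissues were not checked against marker genes.

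Uniquely mapped reads of the 8 H3K27ac libraries ran from 4108135 for liver P0 to 19732550 for heart E17.5, and all 8 carry library names of the series that starts with LPAN. Heart lists held 31815 peaks at E14.5, 23210 at E17.5, 39133 at P0 and 36447 at P7. Liver lists held 12474 peaks at E14.5, 24270 at E17.5, 19523 at P0 and 35535 at P7. The short lists set limits on the rule, since an element missed in the liver E14.5 list cannot be liver-only. The heart P21 library stood apart from the other unused lists. Its H3K27ac list held 7376 peaks, and the list labelled as its input held 23762, whereas 22 other input lists held 17 to 42 peaks and that of liver P0 held 865. Its H3K27ac list covered 6.98% of shared elements, while the 3 other unused heart lists covered 98.3% to 99.2%. Of the 24 H3K27ac lists, the one most like the list labelled heart P21 input was that of liver P21, with a Jaccard index (elements marked in both divided by elements marked in either) of 0.651. That list goes against its label as an input, so the label of the heart P21 library is in doubt and it is called here by that label only. The main comparisons that use its H3K27ac list are therefore given with and without it.

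Heart lists alone marked more elements than liver lists alone. Of the 59217 elements, 36.5% were marked in heart lists alone, 23.98% in liver lists alone and 39.6% in both tissues. All 4 heart lists marked 18728 elements, of which 21.5% were heart-only and 40.8% shared. All 4 liver lists marked 9382 elements, of which 8.996% were liver-only and 81.4% shared. Elements marked in 1 list alone made up 28.0%, with 8681 in a single heart list and 7871 in a single liver list. Elements in all 4 heart lists and 1 to 3 liver lists numbered 2452, 1907 and 2714, each more than the liver-only class, and those in all 4 liver lists and 1 to 3 heart lists numbered 206, 283 and 415. These counts moved with the lengths of the lists: at E17.5, where the liver list was the longer, 10665 elements had a liver and no heart peak against 8574 with the reverse. With each of the 8 lists shortened to the best 12474 peaks, 1523 elements were heart-only and 791 liver-only.

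**Figure D1:**
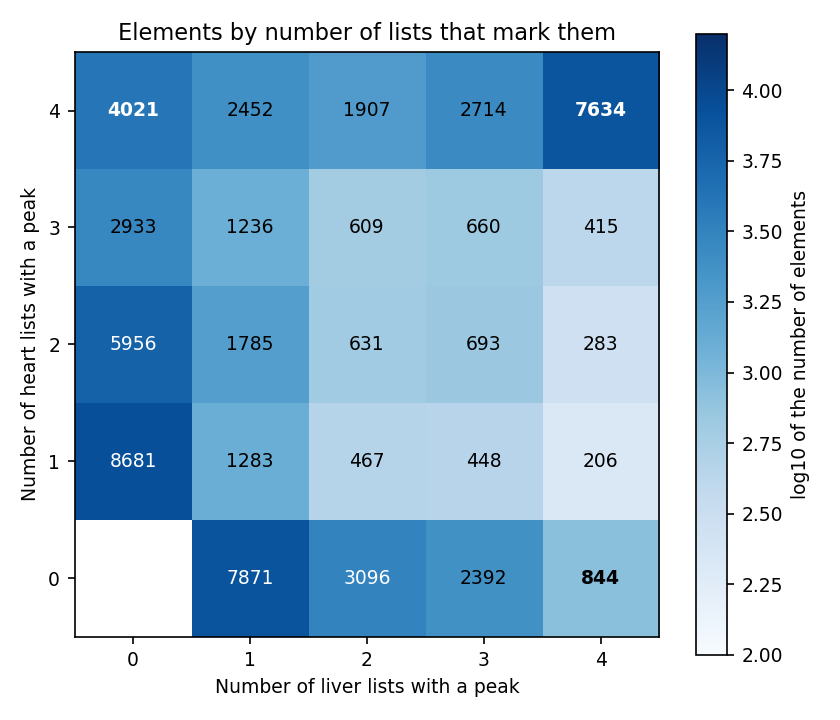
Number of elements by how many of the 4 heart lists (vertical axis) and how many of the 4 liver lists (horizontal axis) mark them, with shading on a log10 scale. The corner cells in bold are the heart-only (4021), liver-only (844) and shared (7634) elements.

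The elements just outside the rule were unevenly spread over the lists. Of 2933 elements in 3 heart lists and no liver list, 1939 lacked E17.5, 503 lacked P7, 377 lacked E14.5 and 114 lacked P0. Of 2392 elements in 3 liver lists and no heart list, 2038 lacked E14.5. The list that most often broke the pattern in each tissue was thus its shortest. Another 2452 elements were in all 4 heart lists and 1 liver list, and in 2281 of them that list was liver P7, the longest of the liver lists. Of the 206 elements in all 4 liver lists and 1 heart list, 77 were in heart E14.5, 74 in heart P0, 52 in heart P7 and 3 in heart E17.5. Most members were compact: in 98.8% of heart-only, 98.1% of liver-only and 97.2% of shared elements, the peaks of every list of the class had a common stretch.

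Lists of 1 tissue resembled each other more than lists of different tissues. The Jaccard index averaged 0.612 over the 6 heart pairs, with a range of 0.532 to 0.722. Over the 6 liver pairs it averaged 0.484, from 0.296 (E14.5 with P7) to 0.626 (E17.5 with P0). Between heart and liver it averaged 0.345 over 16 pairs and ran from 0.233 to 0.421. Every heart pair lay above every pair across tissues, and 1 of the liver pairs, E14.5 with P7, lay within the range of the pairs across tissues. The mean within tissues exceeded the mean between them by 0.203. In an exact test that exchanged the tissue labels within each stage, counting differences of either sign, the observed labelling and its mirror image were the most extreme of the 16 relabellings. No labelling can give a smaller p, and the smallest lies above 0.05, so that this design could not pass.

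**Figure D2:**
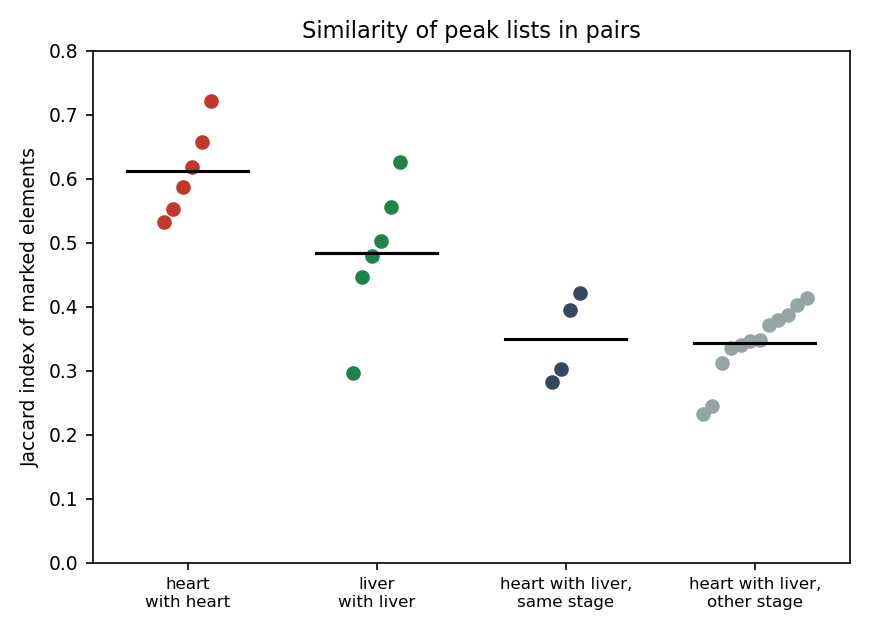
Jaccard index of marked elements for each pair of the 8 lists (points), by kind of pair, with the mean of each kind as a black line. Heart pairs run from 0.532 to 0.722, and pairs of heart with liver from 0.233 to 0.421.

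Heart and liver lists of the same stage had a Jaccard index of 0.282 at E14.5, 0.395 at E17.5, 0.303 at P0 and 0.421 at P7. The stages did not fall into a fetal and a postnatal group: E14.5 and P0 were low, and E17.5 and P7 were high. At E14.5, 29.9% of heart peaks (exact 95% interval 29.4 to 30.4) overlapped a liver peak, and 74.3% (73.5 to 75.05) of liver peaks overlapped a heart peak. At E17.5 the shares were 57.7% (57.0 to 58.3) and 53.1% (52.5 to 53.7). At P0 they were 34.1% (33.6 to 34.6) of heart peaks and 69.1% (68.5 to 69.8) of liver peaks. At P7 they were 58.0% (57.5 to 58.5) and 59.8% (59.3 to 60.3). The tissue with the longer list had the smaller share at each of the 4 stages. These intervals cover counting error only, and with 1 list per tissue and stage the values have no replicate check. Elements with a heart peak and no liver peak at a given stage numbered 20355, 8574, 24525 and 14256 from E14.5 to P7, so that heart-only elements made up 19.8%, 46.9%, 16.4% and 28.2% of them. On the liver side, 2714, 10665, 5041 and 13334 elements had a liver peak and no heart peak, and liver-only elements were 31.1%, 7.91%, 16.7% and 6.33% of them.

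Heart-only elements were marked in heart well beyond the 4 stages that defined them. Of the 4021, 76.1% had a peak in heart E11.5 replicate 1, where 44.4% of all 59217 elements did. In heart E11.5 replicate 2 the share was 71.4%, against 39.3% of all elements. In heart P56 it was 80.7%, against 55.7%. The short heart P21 list held 40.3% of heart-only elements, against 11.1% of all. Every unused heart list thus marked heart-only elements more often than elements in general. The 3 unused liver lists went the other way, with 4.18% at E11.5, 8.46% at P21 and 10.2% at P56, where 29.6%, 43.0% and 45.3% of all elements were marked. Exact 95% intervals for counting error reached at most 1.54 percentage points from the shares of heart-only elements.

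The 4 unused heart lists, of which 2 are replicates of E11.5, averaged 67.1% ± 18.3 (SD, n = 4) of heart-only elements and the 3 unused liver lists 7.63% ± 3.12 (SD, n = 3). The groups did not overlap, but the difference of 59.5 percentage points did not pass the threshold in a two-sided exact permutation test over lists, with p = 0.0571 and p = 0.0952 after Benjamini-Hochberg adjustment over the 5 comparisons of this kind. With these lists the 35 relabellings cannot give a p below 0.0286. Without heart P21 the difference was 68.4 points (exact permutation p = 0.1), in a design too small to pass. Against the 9 forebrain lists, which averaged 21.9% ± 9.90 (SD, n = 9), the difference of 45.3 points passed (two-sided exact permutation p = 0.00140, adjusted p = 0.00699), and the 4 heart lists all lay above the 9 forebrain lists. Without heart P21 it was 54.2 points (exact permutation, adjusted p = 0.00758). The test did not take account of the shares of all 59217 elements, which were merged from heart and liver peaks alone. Those shares were 11.1% to 55.7% in the unused heart lists and 16.2% to 36.6% in the forebrain lists. With the labels exchanged only within stages that both tissues have, the difference was 47.2 points and the call was lost (exact permutation p = 0.25, the smallest that this design allows). Of the unused heart lists, 3 carry names of a second library name series, IO, as do 8 of the forebrain lists. The IO series holds no liver list, so series and tissue cannot be told apart in the comparison with liver. Uniquely mapped reads were 18.4% to 44.1% of filtered reads in the LPAN H3K27ac libraries and 68.9% to 78.4% in the IO ones. Within the IO lists, heart exceeded forebrain by 54.7 points (exact permutation p = 0.00606). Within the LPAN lists, heart P21 marked 40.3%, forebrain P56 replicate 2 marked 25.8% and the liver lists 4.18 to 10.2%; a single heart list leaves no test there that could pass. The comparisons with liver and with forebrain use the same heart lists and are not independent.

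Heart-only elements were not a uniform set. Of the 4021, 2160 (53.7%) were marked in both E11.5 replicates and in P56, and 814 (20.2%) were in addition absent from the 3 unused liver lists and the 9 forebrain lists. Another 589 (14.6%) were in P56 and in neither E11.5 replicate, and 494 (12.3%) were in both E11.5 replicates and not in P56. The 2654 members marked in both E11.5 replicates had a median rank percentile of 57.7 in the heart E14.5 list and 63.9 in the P0 list, where 100 stands for the authors' best peak and 0 for the last. The 746 in neither replicate stood at 29.5 and 54.9 in these lists. Marking at P56 differed little between them, at 81.4% and 79.0%.

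Forebrain marking of heart-only elements ranged from 8.53% at E11.5 replicate 2 to 35.04% at P7, with a median of 24.5% over the 9 lists. At least 1 forebrain list marked 2041 (50.8%) of them and all 9 marked 129 (3.21%). Forebrain shares of all 59217 elements were 20.4% and 16.2% in the E11.5 replicates, 28.9% at E14.5, 23.5% at E17.5, 30.2% at P0, 35.9% at P7, 19.9% at P21, and 36.6% and 30.2% in the P56 replicates. Heart-only elements lay below that background in each forebrain list, by the least at P7.

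Liver-only elements were marked unevenly in the unused liver lists. Liver E11.5 marked 91.4% of the 844, against 29.6% of all elements. Liver P21 marked 27.6% of them and liver P56 31.3%, in both cases below the shares of all elements, 43.0% and 45.3%. This order rested on the liver E14.5 list, the shortest of the 8. Without it in the rule 2885 elements were liver-only, and liver E11.5 marked 46.1% of them, liver P21 58.8% and liver P56 58.2%, where 29.6%, 43.3% and 45.6% of all elements were marked. With the 8 lists shortened to the best 12474 peaks, liver E11.5, P21 and P56 marked 97.3%, 72.6% and 71.9% of 791 liver-only elements, against 64.4%, 70.4% and 70.01% of all. Leaving out any other list of the rule gave 89.3% to 91.8% at E11.5 and 29.02% to 32.9% at P56. Heart lists marked 31.3% (E11.5 replicate 1), 16.1% (E11.5 replicate 2), 0.237% (P21) and 13.3% (P56) of liver-only elements, so that heart E11.5 replicate 1 and liver P56 gave the same share. Forebrain lists marked 2.49% to 16.1%, with a median of 9.005%. Exact 95% intervals reached at most 3.25 percentage points from these shares.

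Over lists, the unused liver lists averaged 50.1% ± 35.8 (SD, n = 3) of liver-only elements and the unused heart lists 15.2% ± 12.7 (SD, n = 4). The difference of 34.9 points did not pass (two-sided exact permutation p = 0.114, adjusted p = 0.143), and the groups overlapped. Without heart P21 it was 29.9 points (exact permutation p = 0.3), in a design too small to pass. Against forebrain, at 8.99% ± 5.28 (SD, n = 9), the difference was 41.1 points (exact permutation p = 0.00455, adjusted p = 0.0114), and each liver list lay above each forebrain list. This call too was lost with the labels exchanged within stages (43.1 points, exact permutation p = 0.25). Shares of all elements, 29.6% to 45.3% in the liver lists and 16.2% to 36.6% in the forebrain lists, were not used in the test. Of the forebrain lists, only P56 replicate 2, at 12.1%, shares the LPAN library name series with the liver lists, so series and tissue cannot be told apart in this comparison. Heart P21 is the only unused heart list of that series, so the same holds for the comparison with heart. Without the liver E14.5 list in the rule, the difference between liver and heart was 46.5 points (exact permutation, adjusted p = 0.0476), with heart P21 among the heart lists.

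The liver-only class held members of different histories. Of the 844, 519 (61.5%) were in liver E11.5 and in neither P21 nor P56, while 198 (23.5%) were in all 3 unused liver lists and 22 (2.61%) in P21 and P56 but not E11.5. Without the liver E14.5 list these patterns covered 621 (21.5%), 599 (20.8%) and 942 (32.7%) of 2885 elements. The 220 members present at both P21 and P56 had a median rank percentile of 23.9 in the E14.5 list and 72.7 in the P7 list. The 567 present at neither stood at 51.9 and 43.4. In the E17.5 list the 2 groups were close, at 63.6 and 64.1. Ranks were compared within a list, and the weakest peaks of a list are the ones most easily missed in another. Liver E11.5 marked both groups alike, 90.0% of the first and 91.5% of the second. Heart E11.5 replicate 1 also marked them in similar shares, 28.2% and 31.9%. Whole tissue was used, so that fewer cells of a type and less marking per cell cannot be told apart.

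The stages at which an element was marked went with its fate outside the rule in both tissues. Among elements marked in liver and no heart list, the 394 at E14.5 and E17.5 alone were in liver E11.5 in 65.7% of cases and in liver P56 in 5.33%. The 2038 that lacked only E14.5 had the reverse profile, with 27.2% in liver E11.5, 71.7% in liver P21 and 69.6% in liver P56. The 5617 seen at P7 alone had 3.77% in E11.5 and 47.4% in P56. These 2038 elements outnumbered the liver-only set, and the part of the short liver E14.5 list in their number was not tested.

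Heart showed a similar range. Elements marked at E14.5 alone (2337) were in heart E11.5 replicate 1 in 48.4% of cases and in heart P56 in 9.33%. Elements marked at P0 and P7 alone (4024) were in that E11.5 list in 9.49% of cases and in P56 in 71.9%. The 377 that lacked only E14.5 were in E11.5 replicate 1 in 19.9% of cases and in P56 in 80.1%. The 1939 that lacked only E17.5, the shortest heart list, had 51.0% and 65.7%, both below the 76.1% and 80.7% of heart-only elements. When 1 list of the rule was left out, heart-only elements had 67.96% to 79.3% in E11.5 replicate 1 and 74.7% to 85.01% in P56, so that their marking on both sides of the 4 stages did not rest on a single list.

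**Figure D3:**
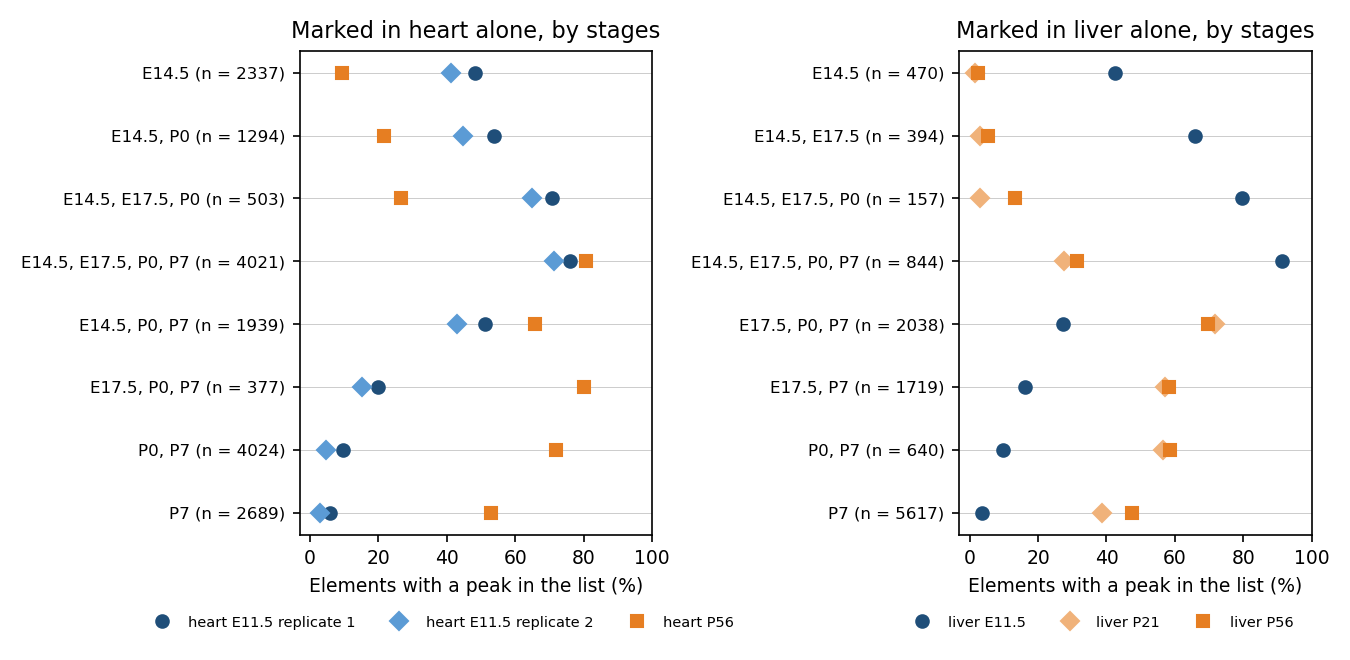
Percent of elements marked in heart alone (left) or liver alone (right) that had a peak in lists outside the rule, by the stages at which they were marked (vertical axis, with the number of elements). Elements marked at all 4 stages were in heart E11.5 replicate 1 (76.1%) and P56 (80.7%) alike, but in liver E11.5 (91.4%) far more often than in liver P56 (31.3%), an order that rests on the liver E14.5 list.

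Shared elements were marked almost everywhere. The 7634 were covered to 99.2% and 98.7% by the heart E11.5 replicates, 98.3% by heart P56, 99.5% by liver E11.5, 97.2% by liver P21 and 96.5% by liver P56. Forebrain lists covered 71.2% to 95.5% of them, with a median of 91.2%, although no forebrain list was used to choose them. All 9 forebrain lists marked 4827 (63.2%) and none marked 133 (1.74%). Heart P21 was the exception, with 6.98%. Because of this list the mean over the 7 unused heart and liver lists, 85.2% ± 34.5 (SD, n = 7), lay 3.01 points below that of forebrain, 88.2% ± 7.68 (SD, n = 9), with an exact permutation p of 0.976 (adjusted p = 0.976). Without heart P21 it lay 10.03 points above (exact permutation p = 0.00380, adjusted p = 0.00758).

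**Figure D4:**
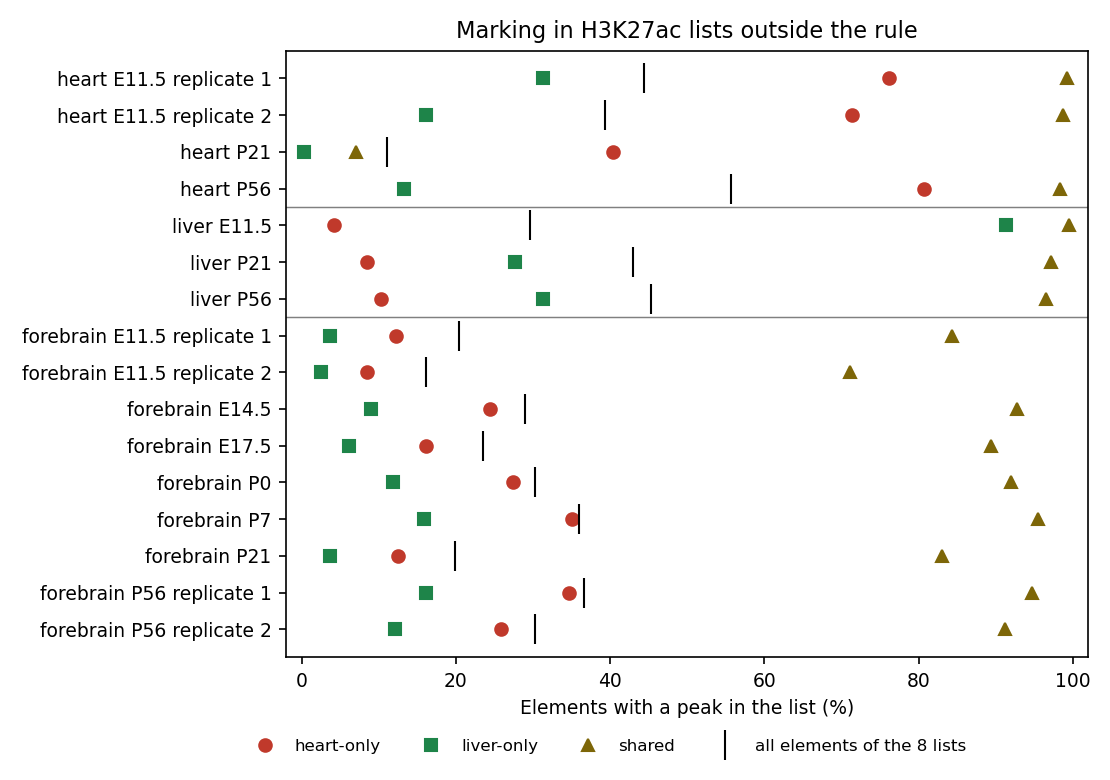
Percent of heart-only, liver-only and shared elements (coloured symbols) with a peak in each of the 16 H3K27ac lists outside the rule, and of all 59217 elements (black bars). Heart-only elements lie right of the bar in the 4 heart lists and left of it in the liver lists, liver-only elements lie right of it in liver E11.5 alone, and shared elements lie left of it in heart P21 alone.

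Shared elements carried most of the top peaks of every list, and heart-only and liver-only elements ranked below them in each. The median rank percentile of shared elements was 83.8, 77.0, 85.9 and 83.7 in the heart lists from E14.5 to P7, where that of all elements marked in these lists was between 50.9 and 52.3. Heart-only elements stood at 50.9, 34.8, 60.7 and 52.7. In the liver lists, shared elements stood at 62.4, 82.5, 76.9 and 87.0 and liver-only elements at 46.4, 64.2, 49.9 and 51.3. These values describe the choice of members, since strong peaks are the likeliest to recur in 8 lists. Where a list had several peaks in an element, the best of them gave its rank. Among elements holding 1 or more of the best 1000 peaks of a heart list, 785 to 853 were shared and 15 to 30 heart-only. In liver the numbers were 757 to 946 shared, and 85, 32, 26 and 4 liver-only at E14.5, E17.5, P0 and P7. Liver-only elements were 8.69% of the elements with top peaks at E14.5 and 7.17% of all elements marked in that list, against 0.402% and 2.53% at P7.

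**Figure D5:**
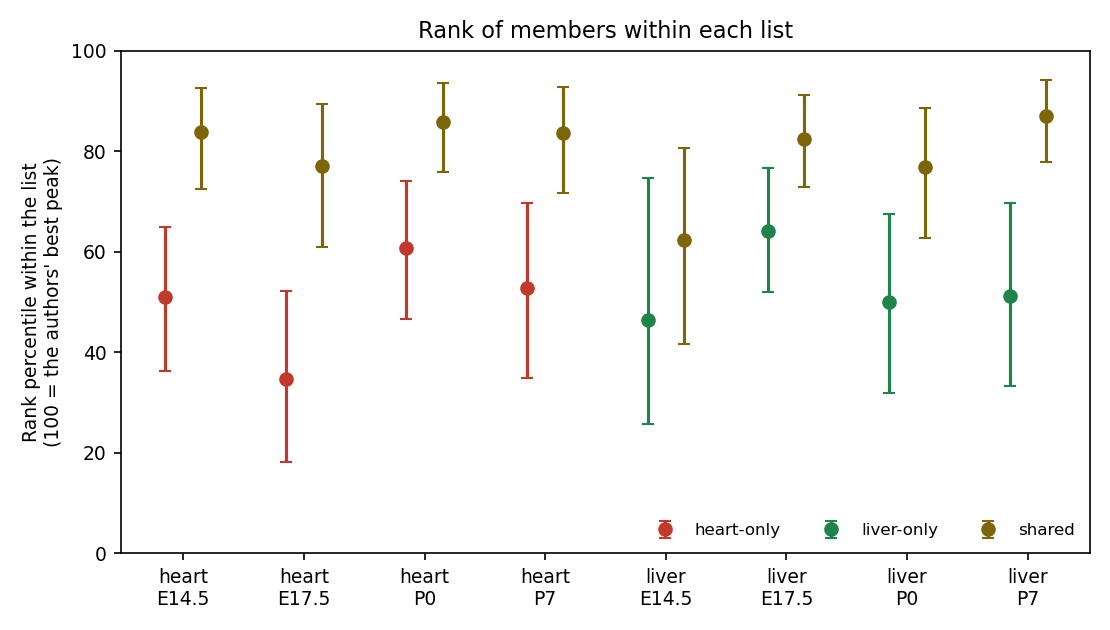
Median rank percentile (points; bars span the 25th to the 75th percentile of the elements) of heart-only, liver-only and shared elements within each of the 8 lists, where 100 is the authors' best peak. Shared elements lie above heart-only or liver-only elements in each list, by the least in liver E14.5 (62.4 against 46.4).

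Liver-only elements were wide, but this was not particular to them. Their median width was 5754 bp, against 5309 bp for shared, 3950 bp for heart-only and 2871 bp for all 59217 elements. Elements in all 4 liver lists and 1, 2 or 3 heart lists were wider still, with medians of 6431, 7012 and 6174 bp. Merging more peaks widens an element, so the widths of single peaks were also compared. The best peak of a liver-only element had a median width of 3998 bp in the E14.5 list, 5368 bp at E17.5, 3382 bp at P0 and 3309 bp at P7, against 3000, 3240, 2772 and 2675 bp for all elements marked in these lists. For heart-only elements the medians were 2908, 2507, 3366 and 2844 bp, against 2539, 2581, 2637 and 2517 bp, so that at E17.5 they were not wider than elements in general.

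The highest ranked heart-only element lay at chr11:120022262-120031972. Its best peaks held ranks 311, 121, 441 and 337 in the heart lists from E14.5 to P7, and it was marked in all 4 unused heart lists and no unused liver list. The next were chr17:71367653-71374463, with ranks from 198 to 1110, and a pair of neighbours on chromosome 1. Of that pair, chr1:137725306-137745747 is 20442 bp wide and had ranks from 129 to 1250, and chr1:137688807-137711663 is 22857 bp wide and had ranks from 59 to 2291. They were followed by chr13:46506469-46528169, chr5:74685467-74699730, chr9:110662916-110670955 and chr1:168054752-168063259. The 2 heart E11.5 replicates and heart P56 marked all 8, and heart P21 marked each except chr1:137688807-137711663. Liver E11.5 marked chr17:71367653-71374463, chr1:137688807-137711663 and chr1:168054752-168063259, where it marked 4.18% of the class. Liver P21 and P56 marked none of the 8. The element on chromosome 13 was marked in all 9 forebrain lists, and 5 of the others in none. The widest heart-only elements were chr19:53763738-53809239 (45502 bp), chr17:26971280-27013748 (42469 bp) and chr11:65047438-65087274 (39837 bp), and the 4 unused heart lists marked each of them. Of the unused liver lists, P56 marked chr17:26971280-27013748, and none marked the other widest elements.

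Of the 8 highest ranked liver-only elements, 4 were in liver E11.5 and in neither P21 nor P56. The first, chr13:59910112-59929794, had ranks 537, 156, 350 and 235 from E14.5 to P7 and was marked at liver E11.5 and P56. The element at chr7:110987185-111030201, 43017 bp wide and the widest of the class, had ranks 17, 246, 81 and 3369 in lists of 12474, 24270, 19523 and 35535 peaks. It was marked in liver E11.5 and in both heart E11.5 replicates, but in no liver or heart list of P21 or P56. The elements at chr6:41647684-41665918 and chr10:40914213-40944681 had the same marking in the unused heart and liver lists, with ranks of 55 and 66 at E14.5 and 3272 and 4340 at P7. At chr17:37000778-37013190, with ranks from 131 to 2719, liver E11.5 and heart E11.5 replicate 1 had a peak and the P21 and P56 lists of both tissues had none. The element at chr9:70990559-71029212, 38654 bp wide, differed from these: it was marked in all 3 unused liver lists and no heart list. Of the 2 left, chr18:85035879-85067499 was marked in liver P21 and P56, in both heart E11.5 replicates and in heart P56, and chr5:137727056-137737314 was in 3 unused heart lists and no unused liver list. Heart E11.5 replicate 1 marked 7 of the 8 elements, where it marked 31.3% of the class. The third widest liver-only element, chr2:27929367-27964384, held ranks 6440, 8751, 12274 and 23521 and was marked in liver E11.5 and all 9 forebrain lists.

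The highest ranked shared elements were chr19:5792069-5829365, chr7:16981216-17011919, chr11:59621398-59626030, chr1:88417906-88429892, chr1:180329873-180340187, chr2:156002740-156008660, chr7:80757706-80768067 and chr2:13992685-13998571. The first ranked 9, 2, 3 and 3 in heart and 44, 3, 2 and 6 in liver from E14.5 to P7. All 8 were marked in the 9 forebrain lists, the 3 unused liver lists and the unused heart lists other than P21. The third was narrow, at 4633 bp, and ranked first in the liver P7 list and second in heart E14.5.

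Heart-only elements were found in 1450 of the 2297 windows of 1 Mb that held any element. The window of 1 Mb with the most, chr13:29000001-30000000, held 21 heart-only, 0 liver-only and 2 shared elements among 56 in all. The windows chr4:148000001-149000000 and chr11:88000001-89000000 held 17 each, with 0 liver-only elements and 9 and 7 shared ones. Of the 4021 heart-only elements, 39.6% lay in windows with 5 or more, against 68.4% of the more numerous shared elements. Liver-only elements, which are fewer, reached at most 5 in a window, at chr4:59000001-60000000, chr7:148000001-149000000 and chr9:64000001-65000000. Windows of the last kind held 7, 17 and 11 shared elements.

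Peaks of the input libraries, DNA taken before immunoprecipitation, gave the background. Input lists of the 8 libraries other than liver P0 overlapped at most 0.118% of a class. The liver P0 input list overlapped 6.06% of shared, 0.592% of liver-only and 0.224% of heart-only elements.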

How the data were processed

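The authors called peaks in every library separately and deposited them as lists of positions, in which a peak carries its rank but no height or score. The submitters' processing notes name the mouse build mm9 and the tools BWA and MACS 1.4, without saying what each was used for. Track names in the H3K27ac lists hold the terms withInput and pe05, per the file headers. Read counts come from a summary table that the authors deposited, joined to the samples by their tissue, stage, antibody or input, and replicate. Peak counts are the numbers of peaks in the lists themselves. The authors' summary gives other peak counts, such as 35804 for H3K27ac of heart E14.5 and 24360 for that of liver P0. For H3K27ac of heart P21 it gives 23852, where the list held 7376.

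Peaks of the 8 lists that overlapped by at least 1 bp were merged, and peaks of other lists marked an element at the same overlap. A rank was used within its list alone. Peak lists record presence, so tests were two-sided exact permutation tests over lists, on the absolute difference of means. They were called at 0.05 after Benjamini-Hochberg adjustment over 5 comparisons, or over fewer within the IO lists. Shares have exact Clopper-Pearson intervals at 95%, which cover counting error only. With 1 library per tissue and stage in the 8 lists, p-values measure the spread between lists and not between animals. The main tests over unused lists exchanged labels freely across stages. They compared shares of members and did not take account of the shares of all elements. They counted replicates of heart E11.5, forebrain E11.5 and forebrain P56 as separate lists. The named elements are, per class, the 8 with the highest mean rank percentile and, for heart-only and liver-only, the 3 widest, and the 3 windows of 1 Mb with the most members. Members, comparisons and gene lists were chosen with earlier results of these data known. On simulated lists of 30000 spaced sites, 200 elements per class were planted in every list of the class, and 100% were recovered in each class. Recovery was fixed by the planting, so this checked the code and not how well the rule finds classes in real lists. The shares of members in unused lists with 1 list of the rule left out, or with the 8 lists shortened, were added after seeing the data. Gene lists, sequence content and promoters were not analysed, since the gene and promoter tables at hand are of another build (GRCm38) and coordinates were not converted. Python 3.11.15, numpy 2.4.6, scipy 1.17.1 and matplotlib 3.10.9 were used.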

Additional observations from a re-analysis of the deposited data

Results flagged for a closer look

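The heart P21 list held 6.98% of shared elements, far from the 3 other unused heart lists, which held 98.3% to 99.2%. It was the 1 sample that stood apart among 11 groups of lists examined in this way, where chance marks about 1 group in 20.

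From E11.5 to P56, marking of the members of each tissue moved in opposite directions. Heart marked 7.001 percentage points more of the heart-only elements at P56 than on average in the 2 E11.5 replicates, and liver marked fewer of the liver-only elements at P56 than at E11.5, a change of -60.1 points. Of all 59217 elements, heart marked 44.4% and 39.3% in the E11.5 replicates and 55.7% at P56, so the heart-only rise was the smaller. Liver marked 29.6% of all elements at E11.5 and 45.3% at P56. The difference between the tissues was not tested, since liver had 1 list at each of these stages. The liver value rested on the liver E14.5 list: without it in the rule, liver marked 46.1% of 2885 liver-only elements at E11.5 and 58.2% at P56.

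The list labelled heart P21 input overlapped 94.6% of shared, 23.8% of liver-only and 2.04% of heart-only elements, and 35.7% of all 59217. No main comparison used this list, but an alternative that removed peaks overlapping their own input list did. No other input list overlapped more than 6.06% of a class. Within the liver-only class it overlapped 82.7% of the 220 elements marked at both liver P21 and P56, and 1.06% of the 567 marked at neither. Of the 24 H3K27ac lists, liver P21 had the highest Jaccard index with it, 0.651. The 7 heart lists other than P21 had 0.346 to 0.389, the 9 forebrain lists 0.254 to 0.310, and the heart P21 H3K27ac list 0.0364. The label of the list is in doubt, and its part in the values of the heart P21 H3K27ac list was not tested.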

How the results depend on the processing

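All alternatives kept heart above liver and forebrain for heart-only elements, and liver above heart and forebrain for liver-only elements. With equal list lengths (12474 peaks for the 8 lists, 7376 for the unused ones) 1523 elements were heart-only and the mean overlap over stages was 0.462, against 0.350; it was 0.256 with peaks trimmed to 1 kb and 0.227 where only peaks covering 50% of the element counted, which left 3784 shared elements. Leaving out 1 stage, or 1 list (chosen after seeing the data), gave 4045 to 6972 heart-only and 847 to 3056 liver-only elements. Heart-only counts were highest without stage P7 (6972), without the liver P7 list (6343) and without stage E17.5 (6171), and liver-only counts without stage E14.5 (3056) and without the liver E14.5 list (2885). The tissue separation of 0.203 passed under free permutation of labels (exact p = 0.0286, the smallest that it allows). That permutation does not keep the stages matched. Heart above liver for heart-only elements passed with equal lengths (41.0 points, exact permutation, adjusted p = 0.0357) and with the best 75% of each list (60.0 points, adjusted p = 0.0476), over a range of 32.7 to 68.4 points. Liver above heart for liver-only elements passed with equal lengths (34.3 points, adjusted p = 0.0357) and with 50% covered (40.1 points, adjusted p = 0.0476), both in exact permutation tests, and leaving out 1 stage or list of the rule gave 33.1 to 46.5 points, and leaving out heart P21 29.9 points. Of 24 alternatives, 22 for heart-only and 20 for liver-only elements did not pass, like the main setting. Each pass for these elements counted heart P21 among the heart lists, and without it the design is too small to pass. The cut at 7376 peaks is the length of the heart P21 list. The calls against forebrain were lost with labels permuted within stages (47.2 points for heart-only and 43.1 for liver-only elements, which allows no exact p below 0.25) and within the LPAN lists (14.52 and 38.0 points), each too small a design to pass. The shared comparison turned from -3.01 to 9.46 points with 50% covered, and the cause was not tested. Within the IO lists, which hold neither heart P21 nor a liver list, it was 10.9 points (exact permutation p = 0.0485). Adjustment there covered only the comparisons that the IO lists allow and left this p unchanged. The shared comparison ran from -5.35 to 10.03 when 1 stage or list was left out, and was above 0 without heart P21 (10.03), stage E14.5 (3.23) or the liver E14.5 list (2.96). Of the 28 named elements, 12 kept their class with peaks trimmed to 1 kb. No paired analysis was possible because replicate numbers above 1 are given for heart and forebrain at E11.5 and forebrain at P56 alone. The stage served as the block in the separation test and where labels were permuted within stages, but not in the main tests over unused lists. The planned gene list and sequence results were not run.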

Other observations

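Exchanges of marking between the tissues across birth were rare. In all, 3389 elements (5.72%) were marked in heart but not liver at 1 or more stages and in liver but not heart at another. Elements marked in heart alone at E14.5 and E17.5 and in liver alone at P0 and P7 numbered 4 (0.00675% of the 59217), and the reverse pattern was found at 12 (0.0203%). More elements gained the second tissue, with 239 (0.404%) marked in heart alone before birth and in both tissues at P0 and P7, and 166 (0.280%) with liver first. Losses of 1 tissue after birth were found at 40 elements (0.0675%) that heart kept and 20 (0.0338%) that liver kept. The heart P0 and P7 lists were longer than the fetal heart lists, and liver P7 was the longest liver list. The part of list length in these counts was not tested.

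The 3 classes differed in their neighbourhoods. The nearest other heart-only element lay at a median of 65.2 kb from a heart-only element, and the nearest shared element at 120.8 kb. For liver-only elements the order was the reverse, with a median of 48.4 kb to the nearest shared element and 380.2 kb to the next of their own class; shared elements outnumber them. On chromosome X, 1.19% of heart-only, 3.08% of liver-only and 2.59% of shared elements were found, where 1.87% of all elements lay. On chromosome 19 the shares were 2.44%, 4.15% and 3.63%, against 2.86% of all. These are counts of elements with no test, and gene density was not examined.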
